A study of Mus musculus with 30 samples.

Results

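Tcf7, Lef1, Tcf7l1 and Tcf7l2 are the 4 genes of the mouse TCF/LEF family of transcription factors. They were taken by name, as 4 of the 21820 protein-coding gene symbols quantified, and not for any measured value. The study asked how brain endothelial cells (ECs) change when they are placed in culture, and whether stabilized beta-catenin alters that change. RNA-seq was analysed in 14 libraries and ATAC-seq, which maps open chromatin, in 10, all from adult male mice. Acutely isolated ECs were the GFP-positive cells sorted from Tie2-GFP brain, and the GFP-negative cells, sorted from Tie2-GFP brain likewise, held the other brain cell types (2 RNA libraries each, sequenced for 75 cycles). The WT cultures (6 RNA libraries) were puromycin-purified brain ECs grown for 8 days. WT cultures 1 and 2 came from C57BL/6J mice by the first isolation procedure (method A), and WT cultures 3 to 6 came from Ctnnb1flex3/+;Tie2-GFP mice by a second one (method B). The stabilized cultures (4 RNA libraries) came from Ctnnb1flex3/+;Pdgfb-CreER;Tie2-GFP mice, 1 and 2 by method A and 3 and 4 by method B. In these mice 4-hydroxytamoxifen (4HT), given in early life, lets a Cre recombinase driven in ECs by Pdgfb remove exon 3 of 1 Ctnnb1 copy, which leaves a beta-catenin that resists degradation. The Ctnnb1flex3/+;Tie2-GFP controls also received 4HT and lack the recombinase. Brains were pooled for the cultures, and each culture experiment gave 2 libraries from separate wells. P-values between cultures thus measure the spread between wells and experiments, not between animals. Within 1 isolation method, where each group is 1 experiment, they measure the spread between wells alone. The acute and GFP-negative libraries were sorted cells, not wells, and the paper combined cerebrum and cerebellum data sets as its adult brain ECs. P-values that involve them also rest on the spread between 2 sorted libraries per group. WT cultures 3 and 4 were sequenced for 150 cycles at another facility and the other cultures for 36, so read length, facility and experiment cannot be told apart in them.

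TCF/LEF proteins bind DNA through a high-mobility-group domain and have little activating power of their own. Without a Wnt signal they hold corepressors of the TLE (Groucho) family at their targets, and when beta-catenin accumulates in the nucleus it docks on their amino-terminal end and recruits coactivators. LEF1 and TCF7 (also called TCF1) act mostly as activators of Wnt targets, TCF7L1 (TCF3) mostly as a repressor, and TCF7L2 (TCF4) as either. Several of the genes have an additional promoter inside the gene, whose transcripts code for shorter proteins that lack the amino-terminal end. In the brain, Wnt signals to ECs through beta-catenin are required to form and keep the blood-brain barrier (BBB), Lef1 is itself a Wnt target in ECs, and Tcf7l2 is also made by thalamic neurons and by cells of the oligodendrocyte lineage.

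In GRCm38 (mm10) coordinates and GENCODE M21, Tcf7 (ENSMUSG00000000782.15) lies at chr11:52252371-52283014 on the minus strand with 2 annotated transcripts, and Lef1 (ENSMUSG00000027985.14) at chr3:131110471-131224356 on the plus strand with 8. Tcf7l1 (ENSMUSG00000055799.13) lies at chr6:72626378-72789254 on the minus strand with 5, and Tcf7l2 (ENSMUSG00000024985.19) at chr19:55741820-55933654 on the plus strand with 22. The family's own binding letters, CTTTGAT or ATCAAAG on the other strand, stood in the chromatin that was open near these genes, so the stretches on which the chromatin results turn are printed here. Each is 120 bases of the plus strand around the match, and the capitals mark the TCF/LEF letters in the first 7 and the AP-1 letters (TGANTCA) in the last 2. The first 3 stretches lay in regions with a peak in both acute libraries and in no culture, the next 4 in the other Lef1 regions that hold the letters, and the last 2 lay in regions with a peak in every culture and in neither acute library.
Tcf7, upstream, open in acute ECs alone, chr11:52309536-52309655: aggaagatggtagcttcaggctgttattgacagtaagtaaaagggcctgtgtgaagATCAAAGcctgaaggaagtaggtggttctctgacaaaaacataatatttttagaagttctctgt
Lef1, intron, open in acute ECs alone, chr3:131155766-131155885: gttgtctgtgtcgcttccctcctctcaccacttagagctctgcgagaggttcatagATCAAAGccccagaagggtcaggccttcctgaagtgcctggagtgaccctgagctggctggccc
Tcf7l2, intron, open in acute ECs alone, chr19:55792676-55792795: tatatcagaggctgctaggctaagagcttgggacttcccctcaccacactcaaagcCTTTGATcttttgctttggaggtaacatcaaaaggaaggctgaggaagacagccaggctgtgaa
Lef1, upstream, chr3:131086017-131086136: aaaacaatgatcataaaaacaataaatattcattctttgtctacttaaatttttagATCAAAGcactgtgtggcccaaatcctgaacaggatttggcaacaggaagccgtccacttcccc
Lef1, intron, chr3:131137228-131137347: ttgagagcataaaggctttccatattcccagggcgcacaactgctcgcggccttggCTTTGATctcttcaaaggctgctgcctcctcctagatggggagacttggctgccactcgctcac
Lef1, around an exon, chr3:131200007-131200126: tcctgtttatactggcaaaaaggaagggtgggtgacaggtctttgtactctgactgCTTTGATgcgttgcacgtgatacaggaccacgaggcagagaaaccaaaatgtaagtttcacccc
Lef1, intron, chr3:131221666-131221785: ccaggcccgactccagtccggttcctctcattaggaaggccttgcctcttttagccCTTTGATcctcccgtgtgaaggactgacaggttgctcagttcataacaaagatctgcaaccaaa
Lef1, intron, open in cultures alone, chr3:131139490-131139609: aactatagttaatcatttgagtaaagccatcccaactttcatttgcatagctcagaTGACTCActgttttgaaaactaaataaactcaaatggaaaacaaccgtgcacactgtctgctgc
Tcf7l2, downstream, open in cultures alone, chr19:55969948-55970067: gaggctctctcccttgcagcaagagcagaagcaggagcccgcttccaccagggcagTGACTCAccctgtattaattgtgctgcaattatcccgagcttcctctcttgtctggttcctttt

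Total estimated counts per RNA library ran from 24284843 in WT culture 1 to 94686456 in acute library 1, and the share from mitochondrial genes from 0.67% to 24.2%. The summed TPM (a level corrected for transcript length and scaled to the same total in each library) of 6 EC markers was 4.15 to 16.7 in GFP-negative cells, 1472 to 1650 in acute ECs, 727 to 2008 in WT cultures and 982 to 3464 in stabilized cultures. Every library labelled as ECs thus held these markers far above the GFP-negative cells. Markers of other cells were also present in the acute libraries. The sum of 4 pericyte markers was 244 to 354 TPM there and 222 to 446 in the GFP-negative cells, and that of 4 erythrocyte markers 5443 to 41090 and 1295 to 15160, so the groups overlapped in both lists, while 9 oligodendrocyte markers summed to 36.4 to 42.1 against 688 to 2436. The excision of Ctnnb1 exon 3 cannot be read from gene totals, so the genotype of the stabilized cultures was not checked here. The paper reports reads that skip this exon in every stabilized RNA library and in none of the WT cultures.

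Tcf7 and Lef1 were higher in acute ECs than in the other brain cells, where Tcf7l2 and Tcf7l1 had the highest levels of the family. Tcf7 stood at 56.9 and 40.7 TPM in the acute libraries against 1.45 and 5.17 in the GFP-negative ones. Lef1 stood at 47.4 and 205 TPM against 2.50 and 0.946. For both genes each acute library was above each GFP-negative library. In edgeR's quasi-likelihood test, with p-values adjusted over all genes by Benjamini-Hochberg, the log2 fold change of acute ECs over GFP-negative cells was 4.01 for Tcf7 (SE 0.60, adjusted p = 0.0064) and 5.63 for Lef1 (SE 0.62, adjusted p = 0.00265). Here and below a gene is called when its adjusted p is under 0.05, its log2 fold change passes 1 in size and every library of the higher group has at least 5 TPM. Both genes were called, against 8.3% of the 15102 genes tested called higher in ECs, and their groups did not overlap, as was so for 20.1% of all genes tested in that direction. In bulk RNA, fewer cells of a type and less RNA per cell cannot be told apart.

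Tcf7l1 and Tcf7l2 were not called in this comparison, in which 7.56% of genes were called lower in ECs. Over all genes, 1254 were called higher and 1142 lower, and 930 and 1419 with library size scaling. Tcf7l1 was at 2.54 and 3.72 TPM in the acute libraries and at 5.10 and 8.47 in the GFP-negative libraries, a log2 difference of -0.81 (SE 0.44, adjusted p = 0.224 in edgeR's quasi-likelihood test). Tcf7l2 was at 30.8 and 5.50 TPM in the acute libraries and at 12.6 and 15.4 in the GFP-negative ones, so that the groups overlapped, at a log2 difference of 0.15 (SE 0.55, adjusted p = 0.87). The direction for Tcf7l2 turned to -0.31 with library size scaling, to -0.55 when only protein-coding transcripts were counted, and to -0.74 without acute library 1. Of its 30.8 TPM in that library, 28.5 belonged to Tcf7l2-220, a noncoding transcript of 830 bases inside the gene, and its coding transcripts came to 2.24 TPM against 4.44 in the other acute library and 3.89 and 5.59 in the GFP-negative ones. The 6 thalamic neuron markers summed to 83.3 to 119 TPM in GFP-negative cells and 24.9 to 84.5 in acute ECs, and their members did not go one way. Calb2, Ntng1, Slc17a6 and Gbx2 were under 1 TPM in both acute libraries, where the sum was almost all Prkcd (64.7 and 11.3) and Rora (19.5 and 13.3). The mean of Calb2 was 60.3 TPM in GFP-negative cells and 0.15 in acute ECs, and that of Prkcd 15.9 and 38.0. The part of neurons and oligodendrocytes in the Tcf7l2 level was not tested.

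T cells also express Tcf7 and Lef1, and 9 of 10 T cell markers were quantified. Their summed level was 8.55 to 12.5 TPM in the GFP-negative cells and 1.15 to 3.32 TPM in the acute ECs. In both acute libraries 8 of the 9 were under 1 TPM, with Cd4 and Themis at 0. Cd3d, the other one, stood at 0.778 and 1.96 TPM there and at 0.918 and 2.63 in the GFP-negative cells. The part of T cells in the Tcf7 and Lef1 levels was not tested. In WT cultures it was 0.165 to 0.923 TPM.

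**Figure D1:**
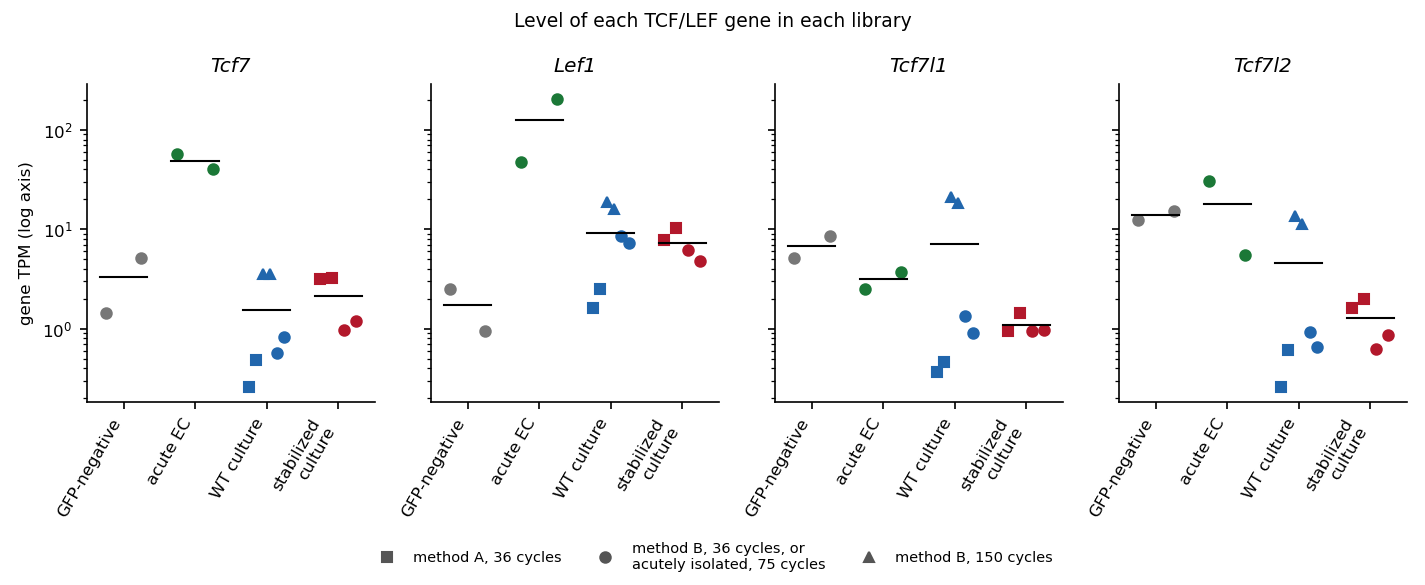
TPM of each TCF/LEF gene (log axis) in each of the 14 RNA libraries, grouped by cell population; symbols give the isolation method and read cycles and the bars the group means. Tcf7 and Lef1 are highest in the 2 acute EC libraries, and in Tcf7l1 and Tcf7l2 the WT cultures of 150 cycles (triangles) stand above the other cultures.

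In culture, Tcf7 and Lef1 fell. Tcf7 had a lowest, median and highest level of 0.258, 0.701 and 3.56 TPM over the 6 WT cultures, against 40.7 and 56.9 in the acute ECs. The mean of the acute ECs was 31.8 times that of the cultures, and the 16 estimated counts for Tcf7 in WT culture 1 were the fewest of any member in any library. Lef1 had a lowest, median and highest level of 1.62, 7.92 and 18.8 TPM, against 47.4 and 205. Its ratio of means, 13.9, depended on the acute library, at 5.2 with acute library 1 alone and 22.5 with acute library 2 alone, and was 6.19 on protein-coding transcripts, which held 65.6 of the 205 TPM. No culture reached the lower acute library in either gene. The log2 fold change of WT culture over acute ECs was -5.99 for Tcf7 (SE 0.62, adjusted p = 0.000219) and -4.63 for Lef1 (SE 0.61, adjusted p = 0.000644) in edgeR's quasi-likelihood test. Other genes of the vessel wall moved in the same comparison, with 4 pericyte markers at 244 to 354 summed TPM in acute ECs and 2.25 to 4.80 in WT cultures. Of the EC markers, Kdr (log2 fold change -3.50) and Cldn5 (-1.97) were called lower in culture, and Pecam1, Cdh5, Tie1 and Erg were not called. The 4 smooth muscle markers split, with Acta2 (log2 fold change 3.11), Tagln (5.51) and Cnn1 (4.15) called higher in culture and Myh11 (-4.40) called lower. Tcf7 and Lef1 were both called lower, as were 10.2% of the 13784 genes tested, while 13.5% were called higher, and in 16.3% of all genes tested the cultures lay wholly below the acute libraries.

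Lef1 stood above Tcf7 in every WT culture. In WT cultures 5 and 6 it kept 8.63 and 7.22 TPM while Tcf7 had 0.574 and 0.828. Against the acute ECs, the method A cultures gave log2 fold changes of -7.33 for Tcf7 (SE 0.63) and -6.36 for Lef1 (SE 0.28), and the method B cultures -5.61 (SE 0.53) and -4.20 (SE 0.29). Both genes were called lower in each of these subsets, as were 1775 of 13401 genes with method A and 1360 of 13812 with method B. The method A cultures are 2 wells of 1 experiment.

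Tcf7l1 and Tcf7l2 were split by the cultures themselves. Tcf7l1 had 0.367, 0.459, 1.35 and 0.895 TPM in WT cultures 1, 2, 5 and 6, below the 2.54 and 3.72 of the acute ECs, and 20.9 and 18.3 in WT cultures 3 and 4, above them. Tcf7l2 had 0.258, 0.606, 0.920 and 0.660 TPM in WT cultures 1, 2, 5 and 6 and 13.5 and 11.4 in WT cultures 3 and 4, against 30.8 and 5.50 in the acute ECs. The pair sequenced for 150 cycles thus stood apart from the other 4 for these genes, by more than the distance between any of those 4. A few genes from the marker lists of other cells moved with them, while many others of those lists were under 1 TPM in every WT culture. The summed TPM of 6 thalamic neuron markers was 25.7 and 23.9 in WT cultures 3 and 4 and 6.58 to 8.92 in the other 4, but Calb2 and Slc17a6 were at 0, 4 of the 6 were under 1 TPM in every WT culture, and the sum was that of Prkcd and Rora. That of 9 oligodendrocyte markers was 37.7 and 46.1 against 9.82 to 19.3, with Mog and Olig2 at 0 and 7 of the 9 under 1 TPM, and Enpp6 alone made up 34.3 and 42.6 of it. That of 4 microglia markers was 4.50 and 3.81 against 0.122 to 0.414, of which Tmem119 made up 4.28 and 3.69, while Cx3cr1, P2ry12 and Csf1r did not pass 0.107 TPM in any WT culture. The 4 neuron markers summed to 6.16 and 5.42 against 2.37 to 8.29. The 4 fibroblast markers summed to 29.1 and 26.4 against 4.95 to 16.2, with Col1a1 at 20.8 and 17.5, and the 4 smooth muscle markers to 2178 and 2023 against 501 to 3068. Over all 6 cultures the log2 fold change was -1.36 for Tcf7l1 (SE 1.02, adjusted p = 0.303) and -2.44 for Tcf7l2 (SE 0.94, adjusted p = 0.0591) in edgeR's quasi-likelihood test, and neither was called. For Tcf7l1 the sign goes against the mean TPM (7.06 in culture, 3.13 in acute ECs), and with a transcript length offset the log2 fold change was -0.06 (SE 1.19). With the 4 cultures of 36 cycles, where 10.9% of 13726 genes were called lower, Tcf7l2 was called at -4.04 (SE 0.55, adjusted p = 0.00212). Tcf7l1 then stood at -3.01 (SE 0.65, adjusted p = 0.01) but did not reach 5 TPM in the acute libraries, so it was not called. DESeq2 called Tcf7l2 over all 6 cultures, at -2.50 (adjusted p = 0.0281). With protein-coding transcripts alone Tcf7l2 was not called (log2 fold change -1.78, SE 0.97, adjusted p = 0.159 in edgeR).

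In order of level, acute ECs thus had Lef1 (mean 126 ± 112 TPM, SD, n = 2) and Tcf7 (48.8 ± 11.4), which do not differ beyond their spread, then Tcf7l2 (18.1 ± 17.9) and Tcf7l1 (3.13 ± 0.84), a pair that also lies within the spread of Tcf7l2. In WT cultures the order of the means was Lef1 (9.10 ± 6.97, n = 6), Tcf7l1 (7.06 ± 9.78), Tcf7l2 (4.56 ± 6.16) and Tcf7 (1.54 ± 1.56), and each step was smaller than the SD of the higher neighbour. In the WT cultures of 36 cycles alone the order was the same, with Lef1 (4.99 ± 3.46, n = 4) further above Tcf7l1 (0.768 ± 0.452), Tcf7l2 (0.611 ± 0.272) and Tcf7 (0.535 ± 0.236). In the stabilized cultures it was Lef1 (7.24 ± 2.34, n = 4), Tcf7 (2.14 ± 1.22), Tcf7l2 (1.28 ± 0.64) and Tcf7l1 (1.08 ± 0.25), and in those cultures the step from Lef1 to Tcf7 was larger than both SDs, while the 3 lower genes lay within an SD of their neighbours. In GFP-negative cells Tcf7l2 came first (13.97 ± 2.0, n = 2), then Tcf7l1 (6.78 ± 2.39), Tcf7 (3.31 ± 2.63) and Lef1 (1.73 ± 1.10), and the step from Tcf7l2 to Tcf7l1 was larger than both SDs. That step turned on protein-coding transcripts alone, with Tcf7l1 at 6.75 ± 2.44 TPM and Tcf7l2 at 4.74 ± 1.20 in GFP-negative cells. Coding Tcf7l2 was at 3.34 ± 1.56 TPM in acute ECs.

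Stabilized beta-catenin was compared with WT over all 10 cultures, and no member was called. Tcf7 had 3.16, 3.22, 0.964 and 1.20 TPM in stabilized cultures 1 to 4, and Lef1 had 7.75, 10.3, 6.13 and 4.81. Tcf7l1 had 0.938, 1.45, 0.952 and 0.974 TPM, and Tcf7l2 had 1.62, 1.99, 0.632 and 0.862. All 4 genes overlapped with the WT cultures, Tcf7 through the WT cultures of 150 cycles alone. The log2 fold change of stabilized over WT was 0.82 for Tcf7 (SE 0.47, adjusted p = 0.554), 0.03 for Lef1 (SE 0.48, adjusted p = 0.984), -1.48 for Tcf7l1 (SE 0.86, adjusted p = 0.559) and -1.09 for Tcf7l2 (SE 0.77, adjusted p = 0.629) in edgeR's quasi-likelihood test. The values of Tcf7l1 and Tcf7l2 depended on the WT cultures of 150 cycles, which have no stabilized counterpart. With the 8 cultures of 36 cycles alone their direction turned, to 0.20 (SE 0.51) and 0.53 (SE 0.35), and with a term for the isolation method they were 0.38 (SE 0.29) and 0.57 (SE 0.33). Tcf7 was at 1.5 (SE 0.37, adjusted p = 0.16 in edgeR) in the 8 cultures and at 1.49 (SE 0.36, adjusted p = 0.0295) with the method term, below the minimum of 5 TPM for a call, and Lef1 at 0.15 (SE 0.56) and 0.52 (SE 0.40). No gene was called in the fit over all 10 cultures, 0% of 12958, although 1344 had an unadjusted p under 0.05, and DESeq2 called 18 (15 higher, 3 lower), none a member. With the shared replicate numbers 1 to 4 as a block, 190 of 12780 genes, 1.49%, were called and again no member (log2 fold change 0.78 for Lef1, adjusted p = 0.254, and 1.02 for Tcf7, adjusted p = 0.378, in edgeR).

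Within the isolation methods the members did not behave alike. In method A, Tcf7 stood at 0.258 and 0.479 TPM in WT and at 3.16 and 3.22 in stabilized cultures, or 2.39 on the log2 scale (SE 0.22, adjusted p = 0.000711 in edgeR), below the minimum of 5 TPM for a call. Lef1 rose from 1.62 and 2.49 TPM to 7.75 and 10.3, or 1.56 on the log2 scale (SE 0.15, adjusted p = 0.000725 in edgeR), and was called, as were 5.39% of 12848 genes in that direction. Tcf7l1 and Tcf7l2 had log2 fold changes of 1.01 (adjusted p = 0.0227) and 1.23 (adjusted p = 0.0114) in edgeR there, under 5 TPM. All 4 stabilized-over-WT differences were therefore positive in method A, where the median over all genes was 0.01. The rise was not particular to the family. The summed TPM of the EC markers was 1447 and 2008 in these WT cultures and 3456 and 3464 in these stabilized cultures. Each group here is 2 wells of 1 experiment, so these p-values measure the spread between wells and set 1 experiment against another, and the WT cultures were C57BL/6J without the flex3 allele. With wells summed per experiment over all cultures, the Lef1 difference was 0.05 (SE 0.65, adjusted p = 1.0 in edgeR).

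In method B with 36 cycles, Lef1 was at 8.63 and 7.22 TPM in WT and 6.13 and 4.81 in stabilized cultures, a log2 difference of -0.42 (SE 0.14, adjusted p = 0.0567 in edgeR). Tcf7 was at 0.574 and 0.828 TPM in WT and 0.964 and 1.20 in stabilized cultures, a log2 difference of 0.72 (SE 0.21, adjusted p = 0.0397). Tcf7l1 and Tcf7l2 had log2 fold changes of -0.10 (SE 0.24) and 0.00 (SE 0.26). No member was called, and 1.36% of 12835 genes were. Tcf7 was the member higher in both stabilized libraries than in both WT libraries under each method. The share of all genes that separated in this way is not given here, so this describes Tcf7 alone.

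The difference between the methods was tested as an interaction over the 8 cultures of 36 cycles. The effect in method B minus that in method A was -1.95 for Lef1 (SE 0.22, adjusted p = 0.00027), -1.65 for Tcf7 (SE 0.33, adjusted p = 0.00362), -1.20 for Tcf7l2 (SE 0.42, adjusted p = 0.0412) and -1.09 for Tcf7l1 (SE 0.40, adjusted p = 0.0489) in edgeR's quasi-likelihood test. The same threshold was passed by 49.6% of the 13356 genes tested. Tcf7 and Lef1 also passed with library size scaling, a transcript length offset and DESeq2, whereas Tcf7l1 passed under none of these (adjusted p = 0.0651, 0.108 and 0.0518) and Tcf7l2 missed the threshold with library size scaling (adjusted p = 0.0552). The 8 libraries are 4 experiments of 2 wells, 1 for each genotype and method, so the p-values rest on the spread between wells alone and experiments have no replicate in this term. The method A controls were C57BL/6J without the flex3 allele and the method B controls carried it, so method, strain and experiment cannot be told apart in this term.

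**Figure D2:**
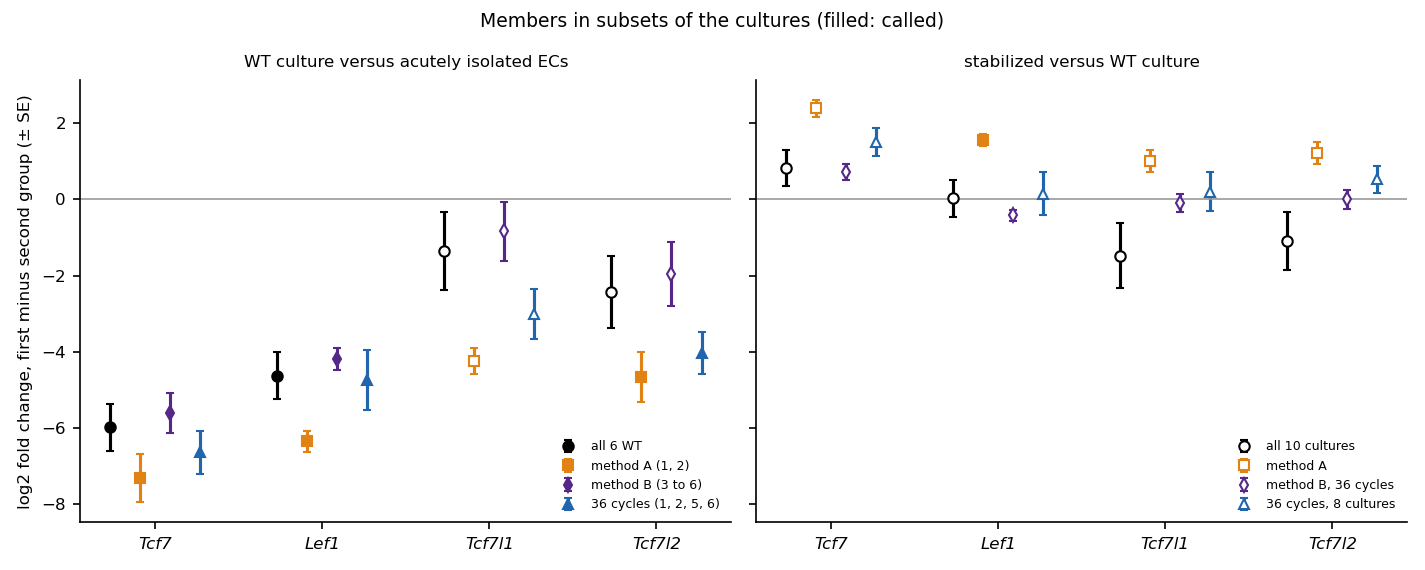
Log2 fold change (± SE) of each TCF/LEF gene for WT culture against acute ECs (left) and stabilized against WT culture (right), in all libraries and in subsets by isolation method and read cycles; filled symbols were called. Tcf7 and Lef1 are filled in every subset on the left, and on the right the method A values lie above 0 for all 4 genes with Lef1 filled.

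The make-up of the family, each gene's share of the 4 genes' summed TPM, is a level per length and can be compared between genes. The summed level was 21.6 and 30.0 TPM in GFP-negative cells, 138 and 255 in acute ECs, from 2.50 to 56.8 in WT cultures and from 7.85 to 16.9 in stabilized cultures. Tcf7l2 and Tcf7l1 held the first 2 places in both GFP-negative libraries. Tcf7 (41.4%) came first in acute library 1 and Lef1 (80.4%) in acute library 2. Lef1 came first in WT cultures 1, 2, 5 and 6, with 61.7% to 75.2%, and in all 4 stabilized cultures, with 57.5% to 70.7%. Tcf7l1 came first in WT cultures 3 and 4, with 36.9% and 37.3%.

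The share of Tcf7 was 8.21% ± 2.57 in WT cultures (SD, n = 6) and 28.7% ± 17.96 in acute ECs (n = 2), with no overlap (two-sided exact permutation test, p = 0.0357, the smallest that 6 against 2 allows, adjusted p = 0.143 over 8 tests). In stabilized cultures Tcf7 was second in all 4 libraries, with 17.2% ± 5.3 (n = 4), 9.03 percentage points above WT (two-sided exact permutation test, p = 0.00952, adjusted p = 0.0762). Neither difference passed after adjustment. The test treats libraries as independent, although the cultures are pairs of wells from 3 WT and 2 stabilized experiments, so its p-values are too small for a spread between experiments. The difference from acute ECs was -20.5 percentage points with both acute libraries, -7.76 without acute library 1, -33.2 without acute library 2 and -36.2 on coding transcripts. No other share of the family reached an adjusted p under 0.05 in either comparison.

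**Figure D3:**
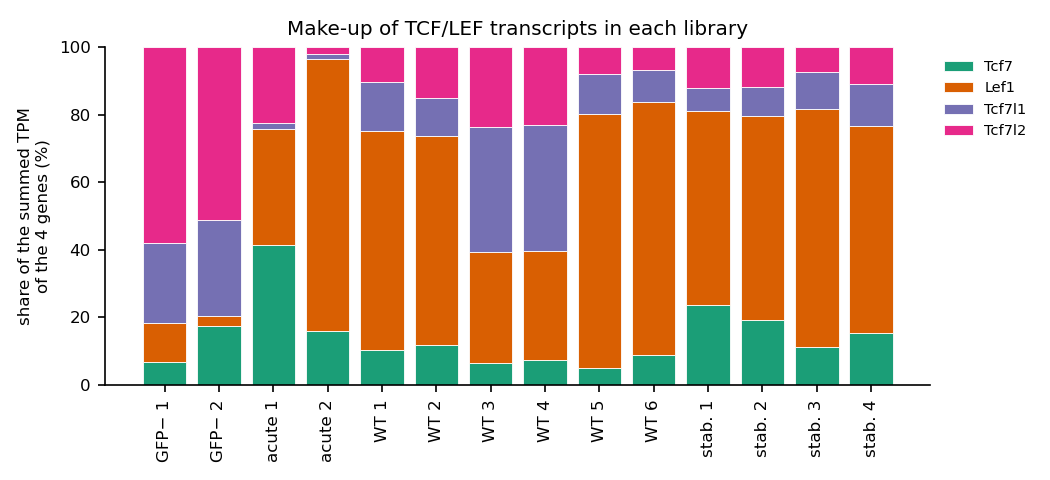
Share (%) of the summed TPM of Tcf7, Lef1, Tcf7l1 and Tcf7l2 held by each gene, 1 stacked bar per RNA library. Tcf7l2 is the largest part in both GFP-negative libraries, where Tcf7l1 is the largest when protein-coding transcripts alone are counted. Lef1 is the largest in 4 of the 6 WT and all 4 stabilized cultures, and the Tcf7 part is 11.1% to 23.5% in stabilized against 5.00% to 11.9% in WT cultures.

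Transcripts were described next, since the family's shorter proteins start at an inner promoter. Of 37 annotated transcripts 21 are protein-coding. Lef1-201 starts at the outer promoter and has 1191 coding bases, and Lef1-203 starts downstream at chr3:131112797 and has 993. Lef1-203 held 0% and 28.7% of the coding Lef1 TPM in the acute ECs. It held 76.7%, 62.8%, 0%, 1.94%, 36.5% and 46.5% in WT cultures 1 to 6 and 50.5%, 58.7%, 44.3% and 37.3% in stabilized cultures 1 to 4. The inner-promoter form was thus estimated at 36.5% of coding Lef1 or more in all 8 cultures of 36 cycles and at 1.94% or less in both cultures of 150 cycles. The GFP-negative libraries stood at 86.0% and 0%. Salmon divides reads that fit several transcripts, and 36-base, 75-base and 150-base reads carry unlike amounts of information for it, so the part of read length in these shares was not tested.

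The share of Lef1-201 in the whole Lef1 level was 48.7% ± 36.3 in WT cultures (SD, n = 6) and 50.2% ± 39.0 in acute ECs (n = 2), a difference far inside the spread (two-sided exact permutation test, p = 0.964). In acute library 2, 112 TPM of Lef1 belonged to Lef1-207, a noncoding transcript of 918 bases at 0 in acute library 1. Coding transcripts made up 43.7 TPM in acute library 1 and 65.6 in acute library 2, or 92.2% and 32.0% of the gene's TPM, so that the acute libraries lay closer together in coding Lef1 than in the whole gene. The fall of Lef1 in culture on coding transcripts was -4.64 on the log2 scale (SE 0.61, adjusted p = 0.000652 in edgeR), and it was called.

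The main Tcf7l1 transcript, Tcf7l1-201, held all of the gene's TPM in both acute libraries, 63.0% ± 15.1 in WT cultures (n = 6) and 82.7% ± 3.7 in stabilized cultures (n = 4). The exact permutation tests, two-sided, gave p = 0.0357 for WT against acute and p = 0.0286 for stabilized against WT, each with an adjusted p of 0.143 over 8 tests. Tcf7-201, of 2 transcripts with the same 909 coding bases, held 83.5% ± 11.3 of the Tcf7 level in WT cultures, 62.4% ± 0.33 in acute ECs and 83.4% ± 8.1 in stabilized cultures (two-sided exact permutation test, WT against acute, p = 0.0714, adjusted p = 0.19). No transcript share passed after adjustment. For Tcf7l2, inner-promoter coding transcripts, of which Tcf7l2-203 has 897 coding bases against 1377 of Tcf7l2-209, held 16.4% and 61.5% of coding TPM in GFP-negative cells, 11.3% and 0% in acute ECs, and 0% in 9 of the 10 cultures.

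**Figure D4:**
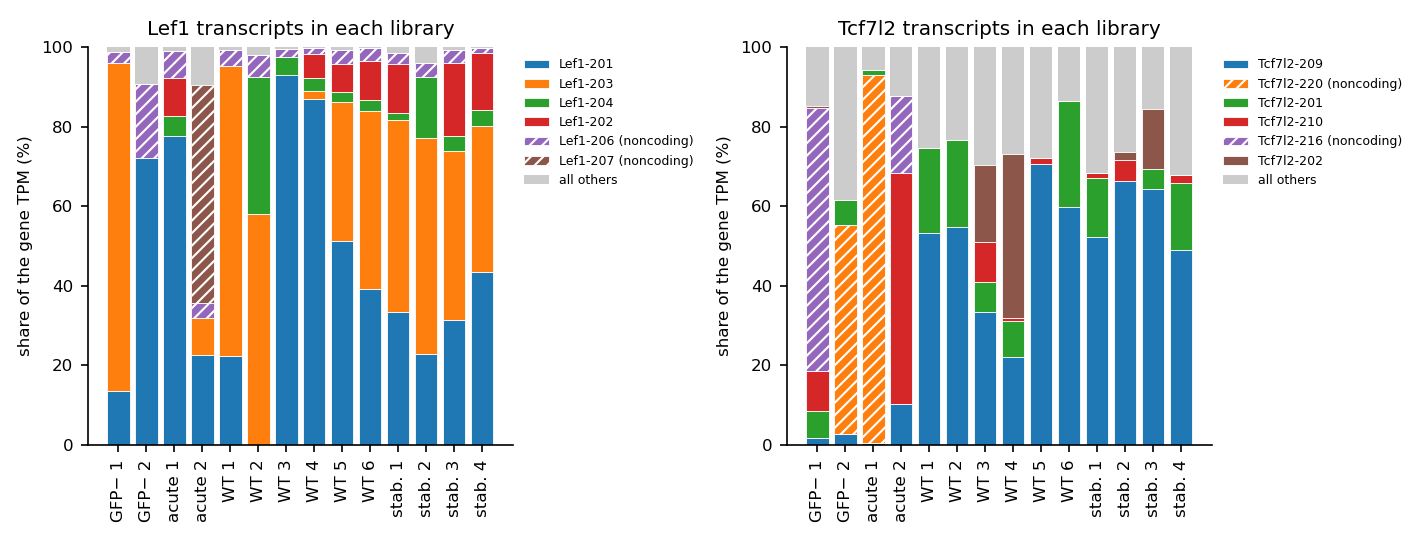
Share (%) of the Lef1 (left) and Tcf7l2 (right) gene TPM held by each of the 6 most abundant transcripts, 1 stacked bar per RNA library, with noncoding transcripts hatched. Lef1-207 fills most of the bar of acute library 2, Tcf7l2-220 most of that of acute library 1, and Lef1-203 (orange, left) is large in the cultures of 36 cycles and near 0 in WT cultures 3 and 4.

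The proteins that TCF/LEF factors recruit were followed as a list of 26 coactivators, corepressors and regulators, all of which could be tested. In WT cultures against acute ECs, 1 was called higher and 6 lower, where 13.5% of all genes tested were called higher and 10.2% lower, and the list's median log2 fold change was -0.89 against 0.10 over all genes tested. The lower ones were Ctnnb1 (beta-catenin itself, log2 fold change -1.20), the acetyltransferases Ep300 (-3.45) and Crebbp (-2.64), the chromatin remodellers Chd8 (-2.52) and Smarca4 (-1.27), and the corepressor Tle3 (-2.08). Kdm1a, a histone demethylase, was higher (1.21). The mean TPM of Ep300 was 127 in acute ECs and 4.62 in WT cultures, and that of Ctnnb1 916 and 434. For Smarca4 the mean TPM was nearly equal, 17.2 and 16.9, so its call rests on the count scale.

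In acute ECs against GFP-negative cells, 3 of the 26 were called higher, namely Ctnnb1 (log2 fold change 3.195), the beta-catenin inhibitor Ctnnbip1 (2.83) and Smarca4 (1.04). Tnik, a kinase that binds TCF7L2, was called lower (-3.28). Over all genes 8.3% were called higher and 7.56% lower, so the list's counts lay near the background. The median of the list was 0.51 against -0.06 over all genes. In stabilized against WT cultures none was called, with a median of 0.15 against -0.04 over all genes.

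Genes known to respond to TCF/LEF and beta-catenin formed a list of 18. In WT cultures against acute ECs, 14 could be tested, with 6 called lower and 2 higher, where 10.2% and 13.5% of all genes tested were, and a median log2 fold change of -2.26 against 0.10 over all genes. The 6 included the feedback inhibitors Axin2 (log2 fold change -8.29), Nkd1 (-6.04), Notum (-8.98) and Apcdd1 (-4.06), together with the receptor Tnfrsf19 (-4.58) and the proteoglycan Spock2 (-9.62). Sp5, a transcription factor, moved the other way (5.91), from 0.0776 and 0.0794 TPM to between 7.54 and 35.4, as did the adhesion receptor Cd44 (5.78). In acute ECs against GFP-negative cells 17 could be tested, with 7 called higher and 1, Wif1, lower, where 8.3% and 7.56% of all genes were. The median log2 fold change of the list there, -0.04, was close to the -0.06 of all genes.

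In stabilized against WT cultures none of the 14 targets tested was called, as no gene was in that fit, with a median of 0.76 against -0.04 over all genes. Axin2 was at 1.86, 1.85, 0.974 and 1.02 TPM in stabilized cultures 1 to 4 and at 0.0998 to 0.269 in the 6 WT cultures (log2 fold change 3.31, adjusted p = 0.181 in edgeR). Spock2 was at 2.61 to 5.11 TPM in stabilized and 0.622 to 2.47 in WT cultures. Other targets overlapped, such as Apcdd1 at 38.9 to 46.1 and 10.55 to 39.9 TPM. The stabilized and WT levels of all 4 TCF/LEF genes overlapped too. The share of all genes whose stabilized and WT levels lay apart is not given here.

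The genes whose levels ran closest to each member were named by Pearson's r of log2(TPM + 1) over the 14 libraries, which share their cell groups, depth and read length, so r describes them and is no test. For Tcf7 these were Prdm1 (r = 0.974), Dock6 (0.971), Pltp (0.966), Lrp8 (0.965) and Gstm7 (0.957), each highest in the acute ECs. For Lef1 they were Rab11fip1 (0.958), Aqp11 (0.957), Itm2a (0.950), Nrd1 (0.941) and Rnf31 (0.938). For Tcf7l1 they were Tox2 (0.975), Atp5g2 (0.970), Lhfpl4 (0.954), Atg13 (0.952) and Atxn7l1 (0.945), and for Tcf7l2 they were Zfp395 (0.967), Rasgrp2 (0.962), Phpt1 (0.953), Gja4 (0.952) and Rora (0.951), which is also 1 of the thalamic neuron markers. Between members, r was 0.796 for Tcf7l1 and Tcf7l2, 0.785 for Tcf7 and Lef1, 0.694 for Tcf7 and Tcf7l2, 0.348 for Tcf7 and Tcf7l1, 0.347 for Lef1 and Tcf7l2 and 0.255 for Lef1 and Tcf7l1. By Spearman's rho the order differed, with Tcf7 and Tcf7l2 (0.890) first, then Tcf7l1 and Tcf7l2 (0.877), Tcf7 and Tcf7l1 (0.776) and Tcf7 and Lef1 (0.596), and both pairs of Lef1 with Tcf7l1 and Tcf7l2 at 0.442.

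Open chromatin was read from the ATAC-seq peaks of 2 acute EC, 6 WT culture and 2 stabilized culture libraries, the last both of method B. Peaks were merged into 104832 regions seen in at least 2 libraries, and 113 of them lay in the 4 genes or within 50 kb of them. These were 21 for Tcf7, 36 for Lef1, 33 for Tcf7l1 and 23 for Tcf7l2. The windows also reach Olfr1371 and Skp1a beside Tcf7, Hadh beside Lef1, and Elmod3, Retsat and Tgoln1 beside Tcf7l1, so a region's target gene is not known. A region was counted as lost when both acute libraries and no WT culture had a peak, and as gained when all 6 WT cultures and neither acute library had one. A missing peak is a missing call, and libraries had between 31779 and 98732 peaks, with the acute libraries at 37384 and 31779.

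Near the members 6 of 113 regions (5.31%) were lost, beside 3.53% of all regions, and 7 (6.19%) were gained, beside 9.74% of all. Without WT 2, which had the fewest peaks of the WT cultures (33122), 20 regions near the members (17.7%) counted as gained, beside 19.3% of all regions. Of the 6 lost regions, 2 were at Tcf7, 3 at Lef1 and 1 at Tcf7l2, and none of the 6 had a peak in a stabilized culture. At Tcf7 they lay 3.5 kb upstream of the start (fold enrichment over background 2.61 and 2.72 in the acute libraries) and 26.6 kb upstream (7.07 and 4.06). At Lef1 they lay 45.9 kb upstream (8.83 and 3.93), 45.3 kb into the gene in an intron (4.61 and 3.2) and 131.2 kb from the start, beyond the gene and inside Hadh (4.15 and 4.85). At Tcf7l2 the lost region lay 50.9 kb into the gene in an intron (7.05 and 4.17). Tcf7l1 had no lost region and no gained one.

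Other Lef1 regions were open in both acute libraries and in few cultures. The one 111.1 kb from the start, an intronic region at chr3:131221221-131222080, had fold enrichments of 15.7 and 12.6 in the acute libraries, and of the cultures only WT 4 (3.12) and stabilized 1 (4.86) had a peak. The one 89.6 kb from the start, at chr3:131199645-131200477, had 11.6 and 7.27, with WT 6 (3.93) and stabilized 2 (3.38). The one 26.8 kb from the start, at chr3:131137067-131137677, had 9.44 and 6.90, with WT 5 (4.43) alone. Of 13 Lef1 regions with a peak in both acute libraries, 10 lacked one in at least 1 WT culture, as did 6 of 7 for Tcf7, 1 of 6 for Tcf7l1 and 1 of 3 for Tcf7l2. Of all 28173 regions with a peak in both acute libraries, 39.8% lacked one in at least 1 WT culture. Without WT 2 the counts were 9 of 13 for Lef1, 4 of 7 for Tcf7, 0 of 6 for Tcf7l1 and 1 of 3 for Tcf7l2, beside 30.0% of all.

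The starts of the genes differed as well. Peaks at the starts of Tcf7l1 and Tcf7l2 were present in all 10 libraries, with fold enrichments of 13.5 and 12.1 in acute ECs against 7.77 to 14 in WT cultures for Tcf7l1, and 15.6 and 14.2 against 8.84 to 10.8 for Tcf7l2. The peak at the outer start of Lef1 was present in both acute libraries (5.33 and 4.38), WT 5 (2.90), WT 6 (3.16) and stabilized 1 (2.55). The peak just upstream of the start of Lef1-203, at chr3:131111591-131112671, was present in all 10 libraries, with 4.07 and 4.93 in acute ECs and 4.44 to 8.26 in WT cultures. The Tcf7 start region had a peak in every library except WT 2 (9.79 and 8.02 in acute ECs, 3.69 to 7.18 in the WT cultures with a peak).

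The gained regions were 5 at Tcf7l2 and 2 at Lef1. One of those at Tcf7l2, at chr19:55895362-55895774, overlaps the start of Tcf7l2-203, the inner start whose coding transcripts were estimated at 0 in 9 of the 10 cultures. It had fold enrichments of 6.13 to 11.8 in the 6 WT cultures. At Tcf7l1, an intronic region at chr6:72740443-72741278 had fold enrichments of 12.9 to 22.9 in all 8 cultures and 3.94 in acute library 1 alone.

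The TCF/LEF letters were searched on both strands in the 300 bases around each region's summit. They stood in 11 of the 113 windows near the members (9.73%) and in 4.66% of all 104616 windows with full sequence. They stood in 15.1% of all lost and 3.70% of all gained regions, and in 3 of the 6 lost regions of the members, the first 3 stretches printed above. Of the 11 motif-bearing regions near the members, 10 had a peak in both acute libraries, against 32.6% of all motif-bearing regions and 26.8% of all regions. Of these 11, 3 were at Tcf7, 5 at Lef1 and 3 at Tcf7l2, and the Lef1 ones included the 3 regions open in few cultures that are described above. The Lef1 region 24.3 kb upstream, also printed, had fold enrichments of 13.6 and 11.2 in acute ECs and of 4.58 to 6.37 in the 4 WT cultures with a peak. Both stabilized cultures had a peak there as well (4.45 and 4.13). The cultures without one, WT 1 and WT 2, are those of method A and had the fewest peaks of the cultures (50395 and 33122). Method, strain and peak number cannot be told apart in them.

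The AP-1 letters, TGANTCA on either strand, gave another picture over all regions, at 28.6% of all, 5.88% of lost and 52.6% of gained windows. They stood in 3 of the 7 gained and 2 of the 6 lost regions near the members. In 300-base promoter windows from RefSeq (GRCm38.p6), 9 of which matched the 4 genes, the TCF/LEF letters were found in 0, against 3.73% of 32851 promoters. A match of 7 letters is a description of sequence and not of binding.

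**Figure D5:**
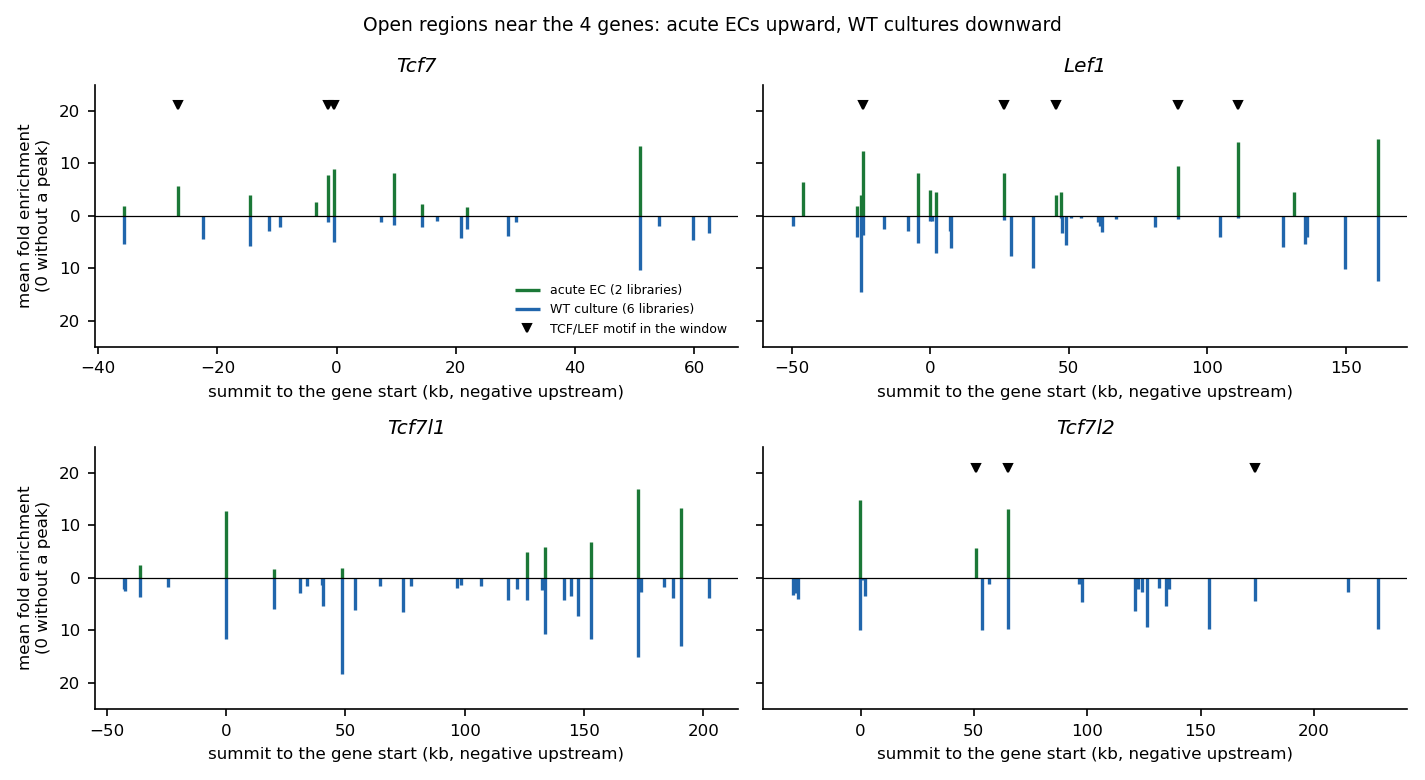
Open regions near each TCF/LEF gene by the distance of the summit from the gene's start (kb, negative upstream), with the mean fold enrichment of the 2 acute EC libraries upward and of the 6 WT cultures downward (0 where a library has no peak); triangles mark windows with the TCF/LEF motif. At Lef1 and Tcf7 most triangles stand over upward lines with short downward lines, and Tcf7l1 has no triangle.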

How the data were processed

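Gene and transcript values came from RNA-seq tables in which the authors quantified reads per transcript with Salmon 0.14.0 on GENCODE M21; each deposited table gives estimated counts, TPM (corrected for transcript length and scaled to a fixed total) and effective lengths. Estimated counts were summed per protein-coding gene symbol and rounded, and TPM were summed. ATAC-seq peaks were deposited per library, as the authors called them with MACS2 2.1.2 on GRCm38 (mm10) after alignment with HISAT2 2.1.0 per the labels, with a score, the fold enrichment over background and -log10 p and q values. Peaks with fold enrichment over 2 and -log10 q over 2 were kept and merged where they overlapped by at least 1 base. The files' peaks ended within the reference's chromosomes for 21 of 21 chromosomes.

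Expression was tested with edgeR 4.0.16 (filterByExpr, TMM, quasi-likelihood) over all protein-coding genes with only the groups compared in each fit, and DESeq2 1.42.0 was an alternative; the scripts were first tested on simulated data. Transcript and family shares were tested with two-sided exact permutation tests over libraries. The members, the gene and marker lists and the tests were chosen with earlier results of these data known. The genes named were the members, list genes that were called or stood next to a member's result, and the 5 genes closest to each member in level (mean TPM of at least 1); open regions named beside the lost and gained ones were chosen after their values were seen. The motif searches and the coding-only values were added after the data were seen.

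Stabilized and WT cultures share replicate numbers 1 to 4, and the deviations of same-numbered libraries from their group means correlated at 0.267, 0.322, 0.281 and 0.304. Since every correlation was over 0.1, the numbers were entered as a block in an alternative fit, while the main fit had no block. Stabilized 1 ran closest to WT 2 and stabilized 4 to WT 3, so the numbers do not establish a pairing of libraries. In both groups 1 and 2 are method A and 3 and 4 method B, so shared number and shared method cannot be told apart. Total estimated counts ranged from 24284843 to 94686456 per library, and values are given with the spread between libraries. No RNA or ATAC file was used for the 6 samples of cerebrum alone, which are not analysed here.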

Additional observations from a re-analysis of the deposited data

Results flagged for a closer look

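Among the 4 stabilized cultures, Tcf7l1 in library 2 (1.45 TPM) lay away from the other 3, the nearest of which had 0.974 TPM, so that the gap took up 0.93 of the whole range. It was 1 of 24 groups of 4 to 10 libraries checked in this way, and chance sets such a library apart in about 1 group in 20.

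The effect of stabilization was compared between the isolation methods in a test of that difference (edgeR's quasi-likelihood interaction, method B minus method A), and all 4 members passed its threshold. The log2 difference was -1.65 for Tcf7 (adjusted p = 0.00362), -1.95 for Lef1 (adjusted p = 0.00027), -1.09 for Tcf7l1 (adjusted p = 0.0489) and -1.20 for Tcf7l2 (adjusted p = 0.0412). Tcf7l1 lost this call under library size scaling (adjusted p = 0.0651), a transcript length offset (0.108) and DESeq2 (0.0518), and Tcf7l2 under library size scaling (0.0552). The same test was passed by 49.6% of all genes, its p-values rest on the spread between wells of single experiments, and method, control strain and experiment cannot be told apart in it.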

How the results depend on the processing

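The calls of Tcf7 and Lef1 in culture and in ECs kept their direction and their side of the threshold under every alternative run. Tcf7l2 in culture, not called over all libraries, was called with DESeq2 (-2.50), a transcript length offset (-3.45), the 36-cycle cultures (-4.04), method A (-4.67) and a replicate block over numbers 1 and 2 (-4.56), and without WT 3 (-2.93) or WT 4 (-2.85). In ECs its direction turned with library size scaling (-0.31) and coding transcripts (-0.55). For stabilized against WT, Lef1 was -0.01 with library size scaling, -0.11 with the length offset, 1.56 in method A (1 member called there) and -0.42 in method B at 36 cycles. Tcf7l1 and Tcf7l2 turned positive in the 36-cycle cultures (0.20 and 0.53), with a method term (0.38 and 0.57) and in method A (1.01 and 1.23). The interaction called 2 members, Tcf7 and Lef1, under library size scaling, where Tcf7l1 (-0.98) and Tcf7l2 (-1.10) missed the threshold, and Tcf7l1 also missed it with the length offset (-0.90) and DESeq2 (-1.11). The causes were not tested.

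In percentage points, the Tcf7 transcript share (stabilized minus WT) was 10.6 with the 150-cycle WT cultures, that of Lef1 39.8 with them (WT minus acute) and 4.58 at 36 cycles (stabilized minus WT), and that of Tcf7l2 46.2 on coding transcripts, where another transcript leads. The Lef1 family share was 7.88 on coding transcripts and 11.8 at 36 cycles (WT minus acute) and -6.67 at 36 cycles (stabilized minus WT), and that of Tcf7l2 -2.21 and 0.455 at 36 cycles. Within 10 kb of the genes 3 regions were lost. Leaving out 1 library at a time moved Tcf7l2 from -2.94 to -1.66 in culture and from -0.74 (without acute 1) to 0.64 in ECs (-0.10 without GFP-negative 1), and Lef1 from -0.17 to 0.22 in stabilized against WT. It moved the Tcf7 transcript share (stabilized minus WT) from -2.61 to 3.82 points, that of Lef1 (WT minus acute) from -29.0 to 26.1, and the family shares (WT minus acute) of Tcf7 from -33.2 to -7.76, of Lef1 from -23.4 to 22.6 and of Tcf7l2 from -7.84 to 12.4, and the ends of the last 4 came from leaving out acute 1 or acute 2. Gained regions ran from 7 to 20, the latter without WT 2, which had 33122 peaks, and lost regions from 6 to 7.

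In culture and in ECs the numbers 1 and 2 do not pair (correlations 0.008 and 0.064), and a replicate block there gave 3897 calls for 3275 and 2072 for 2396. For stabilized against WT the block changed no member's call. Called genes over all went from 2396 to 1565 in ECs with the length offset and to 4479 with no TPM minimum, and in culture from 3275 to 5985 with no TPM minimum and to 2108 with wells summed per experiment. For stabilized against WT, 0 became 18 with DESeq2, 76 with a method term, 810 in method A, 174 in method B at 36 cycles and 190 with the block. Library size scaling moved the median of all genes from 0.10 to 0.30 in culture and from -0.06 to -0.44 in ECs. The counts limit most the WT cultures of method A, where Tcf7 had 16 and 40 estimated counts.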
